A study of Arabidopsis thaliana with 12 samples.

Results

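The transcripts of 7 Arabidopsis genes that act in active DNA demethylation were measured in 10-day-old seedlings. The genes are the 4 DNA glycosylases ROS1, DME, DML2 and DML3 and 3 enzymes that act after them, ZDP, APE1L and LIG1. They were chosen by locus number (AT2G36490, AT5G04560, AT3G10010, AT4G34060, AT3G14890, AT3G48425 and AT1G08130). The rule did not use their values, but the choice was made with earlier results of these data known. All 7 were found among the 34133 features of the expression table. All 7 passed the filter on low values, a mean of at least 0.1 FPKM (fragments per kilobase of transcript, scaled to the mapped fragments of the library) over all libraries, as did 22645 features in total.

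Poly(A) RNA was sequenced from whole seedlings of the Columbia ecotype grown on MS agar under long days. There were 12 libraries, 3 for each genotype: the single mutants nrpe1 and brat1, the double mutant brat1nrpe1, and the wild type (WT). BRAT1 is a chromatin protein with a bromodomain and an ATPase domain, and NRPE1 is the largest subunit of RNA polymerase V, which acts in RNA-directed DNA methylation (RdDM). The labels name no alleles; the study describes its brat1 mutants as T-DNA insertion lines and obtained the double mutant by crossing. Whether the 3 libraries of a genotype came from separately grown seedlings is not given in the labels, so the p-values measure the spread between these libraries. In such bulk RNA, fewer cells that express a gene and less RNA per cell cannot be told apart.

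Plants remove 5-methylcytosine by base excision. A glycosylase of the DME family cuts the methylated base out and nicks the strand, ZDP (a 3′ DNA phosphatase) or APE1L (an apurinic/apyrimidinic endonuclease) cleans the end, and after a new base is put in, DNA ligase LIG1 seals the nick. ROS1 is the main demethylase of vegetative tissue, DME is best known from the central cell of the female gametophyte, and DML2 and DML3 are their close relatives. ROS1 is also known as a gene whose own transcription falls when RdDM is lost, with methylation near its start taken as the sensor, and this makes the comparison of nrpe1 with WT of interest for this gene family.

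In the TAIR10.1 annotation of RefSeq, ROS1 lies on the minus strand at chr2:15307907-15314807 with 21 exons in its longest transcript, and DME on the plus strand at chr5:1309099-1318520 with 18 exons. DML2 lies at chr3:3081735-3088550, DML3 at chr4:16313366-16319426, ZDP at chr3:5008676-5013265, APE1L at chr3:17931705-17934744 and LIG1 at chr1:2542663-2547946. The authors mapped reads to TAIR10; the expression table holds no coordinates. Each word of 50 bases in the longest transcript's exons of the 7 genes was found once in the genome, so reads of these genes are not shared with a close copy at that length.

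The 250 bases just before the annotated start of ROS1 and of DME, the glycosylases highest in WT, are shown since ROS1 is the member whose level moved between genotypes and DME the glycosylase nearest to it in level in WT. Both are written 5′ to 3′ on the strand of the gene, with the dinucleotide CG, the symmetric site of plant CG methylation, in capitals; CG reads the same on both strands. The ROS1 stretch lies at chr2:15314808-15315057 and the DME stretch at chr5:1308849-1309098.
ROS1: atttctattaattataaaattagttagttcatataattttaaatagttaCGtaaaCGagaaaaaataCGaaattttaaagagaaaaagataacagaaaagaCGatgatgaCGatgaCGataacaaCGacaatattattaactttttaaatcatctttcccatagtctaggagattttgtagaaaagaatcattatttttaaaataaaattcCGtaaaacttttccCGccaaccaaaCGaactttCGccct
DME: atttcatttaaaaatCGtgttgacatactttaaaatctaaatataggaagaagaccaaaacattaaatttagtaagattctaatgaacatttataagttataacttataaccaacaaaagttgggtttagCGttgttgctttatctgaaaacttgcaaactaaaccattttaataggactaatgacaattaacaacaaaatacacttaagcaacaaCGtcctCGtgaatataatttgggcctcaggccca
The ROS1 stretch held 11 CG dinucleotides, and 9.24% of the stretches of the same length before 27438 protein-coding genes held at least as many (the median was 5). The DME stretch held 4, and 64.6% of genes had at least as many. DML2 had 2, DML3 4, ZDP 6, APE1L 8 and LIG1 4. Methylation was not measured in these libraries, so the counts describe the letters only.

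The labelled genotypes showed in the mutated genes. NRPE1 had 1.42, 1.32 and 1.29 FPKM in nrpe1 and 1.10, 1.10 and 1.02 FPKM in brat1nrpe1, against 5.01, 4.14 and 4.16 FPKM in WT. BRAT1 had 3.44, 2.96 and 3.15 FPKM in brat1 and 3.11, 2.67 and 2.79 FPKM in brat1nrpe1, against 11.0, 11.4 and 11.1 FPKM in WT. Some transcript of each mutated gene was thus still counted. The size of the smallest steps between low FPKM values gave an estimated depth of 33.6 to 37.8 M (mega) reads in the 4 libraries numbered replicate 1 and of 13.0 to 17.8 M reads in the 8 libraries of replicates 2 and 3. These estimates are lower than the mapped reads that the study lists for each library, which show the same split by replicate number. Leaf markers (RBCS1A, RBCS1B, PSBO1 and LHCB2.1) summed to 22100 to 27500 FPKM and root markers (COBL9, EXP7, SHR and WOX5) to 22.7 to 31.6 FPKM over the libraries, which fits whole seedlings. The 6 flower and seed markers summed to 0.754 to 1.02 FPKM in nrpe1, 1.63 to 2.85 in brat1 and 2.01 to 5.31 in brat1nrpe1, against 0.616 to 1.68 in WT. Of these, the floral homeotic gene AP3 had 0.129 to 0.215 FPKM in nrpe1, 0.514 to 0.848 in brat1 and 0.381 to 1.12 in brat1nrpe1, against at most 0.174 FPKM in WT. MEA, FIS2 and SESA3, which mark the central cell, endosperm and seed, did not pass 0.0659 FPKM in any library. The floral homeotic gene PI had 0.411 to 0.469 FPKM in nrpe1, 0.82 to 1.59 in brat1 and 0.984 to 1.34 in brat1nrpe1, against 0.461 to 0.681 FPKM in WT. The seed storage protein gene CRA1 reached at most 0.412 FPKM in nrpe1, 1.23 in brat1 and 3.71 in brat1nrpe1, against 0.974 FPKM in WT. The part of these markers in the results below was not tested.

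ROS1 transcripts were strongly reduced in nrpe1. ROS1 had 2.56, 1.88 and 1.83 FPKM in the nrpe1 libraries, against 16.8, 15.0 and 15.3 FPKM in the WT libraries (replicates 1, 2 and 3). The groups lay far apart, and the nrpe1 mean of 2.09 ± 0.407 FPKM was 13.3% of the WT mean of 15.7 ± 0.974 FPKM (SD, n = 3 each). On the log2(FPKM + 0.1) scale, which understates the change of low genes, ROS1 fell by 2.86 in nrpe1 (SE 0.157, 95% interval -3.22 to -2.51, limma adjusted p = 1.7e-05). The call held without replicate 1 (limma adjusted p = 4e-05) and was lost without replicate 2 (0.057) and without replicate 3 (0.062), at differences of -2.83 and -2.80. Of the 7 genes, 1 was called (Benjamini-Hochberg adjusted p under 0.05) in this comparison, and 0.353% of all tested genes were called. The same single gene had groups that did not overlap, a pattern seen in 5.69% of all tested genes.

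In brat1, ROS1 was not lower than in WT. The brat1 libraries had 23.3, 19.3 and 18.7 FPKM of ROS1, against 16.8, 15.0 and 15.3 FPKM in WT. All 3 brat1 values lay above all 3 WT values, with a brat1 mean of 20.4 ± 2.50 FPKM (SD, n = 3), 1.30 times that of WT. The difference of 0.37 on the log2 scale (SE 0.157, 95% interval 0.02 to 0.72) was not called by limma (adjusted p = 1.0, and 0.054 when the fit held a replicate block). By quantitative RT-PCR, the study reports that ROS1 is induced in brat1. By bisulfite sequencing, it reports more methylation at the promoter of ROS1 in this mutant. None of the 7 genes was called in brat1 against WT, with 0.0486% of all tested genes called. ROS1 was the only one of the 7 without overlap, against 6.39% of all tested genes.

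The double mutant lay between nrpe1 and WT. ROS1 had 4.76, 3.64 and 3.66 FPKM in brat1nrpe1, against 2.56, 1.88 and 1.83 FPKM in nrpe1. Each double mutant library was above each nrpe1 library, and the brat1nrpe1 mean of 4.02 ± 0.639 FPKM (SD, n = 3) was 1.92 times the nrpe1 mean. The log2 difference was 0.92 (SE 0.157, 95% interval 0.57 to 1.27), with a limma adjusted p of 0.08, above the threshold. With the replicate block the limma adjusted p was 0.00052, and without replicate 1 it was 0.0014, both past the threshold. It was 1.0 without replicate 2 and without replicate 3, and, with replicates 2 and 3 averaged as 1 sample and the block, 0.067 at a difference of 0.90, none of them past the threshold. None of the 7 genes was called without the block (0.146% of all tested genes were), and 1 was called with it (3.38% of all tested genes). ROS1 alone did not overlap, as 8.12% of all tested genes did not.

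Against brat1, the double mutant again had far less ROS1. The 4.76, 3.64 and 3.66 FPKM in brat1nrpe1 stood against 23.3, 19.3 and 18.7 FPKM in brat1, and the log2 difference was -2.32 (SE 0.157, limma adjusted p = 0.00012). Here 1 of the 7 genes was called, with 0.132% of all tested genes, and the same gene alone did not overlap, with 5.01% of all tested genes. Against WT, ROS1 fell by 1.95 in brat1nrpe1 on the log2 scale (SE 0.157, limma adjusted p = 0.00039), to 25.6% of the WT mean. In this comparison 1 of the 7 was called, with 0.300% of all tested genes, and 1 did not overlap, with 8.92% of all tested genes. Both calls were lost without replicate 2 (limma adjusted p = 0.18 and 0.27) and without replicate 3 (0.18 and 0.28), where the differences were -2.30 and -1.92, and -2.32 and -1.91.

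**Figure D1:**
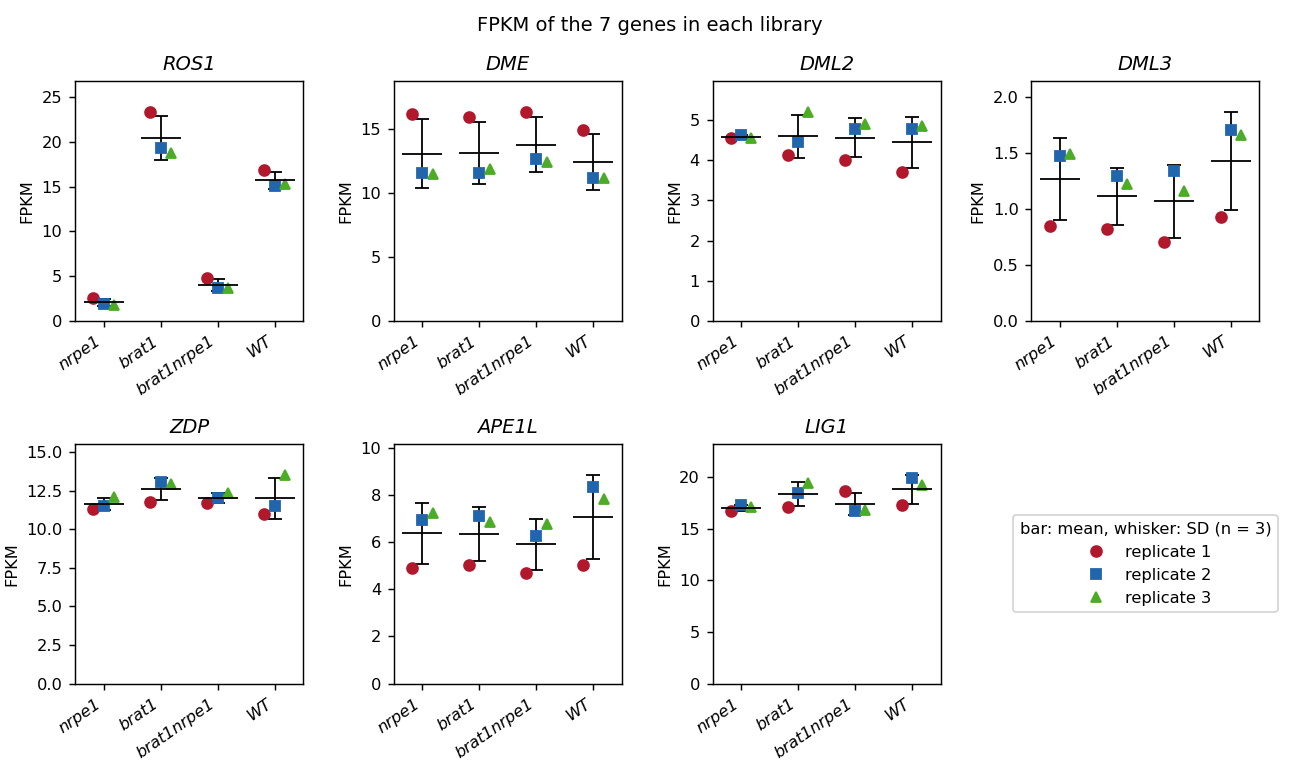
FPKM (linear axis from 0) of the 7 genes in each library, by genotype (nrpe1, brat1, brat1nrpe1 and WT); points are the 3 replicates, the bar is the mean and the whisker the SD. ROS1 lies between 1.83 and 4.76 FPKM in the libraries with the nrpe1 mutation and between 15.0 and 23.3 FPKM in the others, while the other genes overlap between genotypes, and DME, DML3 and APE1L differ more by replicate number.

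In order of the means, ROS1 was highest in brat1, then in WT, brat1nrpe1 and nrpe1. None of the neighbours in this order overlapped, although the steps from WT to brat1 and from nrpe1 to brat1nrpe1 did not pass the test. Among all tested genes the ROS1 mean stood at percentile 21.1 in nrpe1, 69.0 in brat1 and 30.2 in brat1nrpe1, against 62.1 in WT. About 130 to 4037 reads lay behind the ROS1 values at the estimated depths.

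In the 2 by 2 arrangement of the mutations, the nrpe1 mutation averaged over both BRAT1 states gave ROS1 a log2 difference of -2.59 (SE 0.111, limma adjusted p = 2e-06), in a comparison in which 0.499% of all tested genes were called. The call held without each replicate in turn. The brat1 mutation averaged over both NRPE1 states gave 0.64 (SE 0.111), with a limma adjusted p of 0.058 (0.305% of all tested genes called) and of 0.00023 with the replicate block (6.35% called). ROS1 was higher with the brat1 mutation in all 3 replicate numbers in either NRPE1 state. The interaction, the brat1 difference in the nrpe1 state minus that in the NRPE1 state, was 0.54 for ROS1 (SE 0.222, 95% interval 0.05 to 1.04, limma adjusted p = 1.0), in a test that called 0.0221% of all genes. Without replicate 1 the interaction had a limma adjusted p of 0.028, and with the block 0.21. The fit without replicate 1 rests on replicates 2 and 3 alone. Their ROS1 values differed by -0.02 to 0.04 on the log2 scale within a genotype. With a pseudocount of 1 the interaction was 0.34.

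The makeup of the glycosylase family differed in the libraries with the nrpe1 mutation, given here as shares with no test. FPKM is per length, so the 4 genes can be set side by side. ROS1 made up 10.6%, 9.65% and 9.45% of the summed FPKM of the 4 glycosylases in nrpe1, against 46.2%, 46.0% and 46.3% in WT. In brat1nrpe1 the share was 18.5%, 16.3% and 16.5%, against 52.8%, 52.7% and 50.6% in brat1. DME therefore held the largest share in nrpe1 (61.8% ± 4.50) and in brat1nrpe1 (58.6% ± 4.03), against 36.4% ± 4.02 in WT (SD, n = 3 each). The summed level of the other 3 glycosylases overlapped between the genotypes, with 17.5 to 21.6 FPKM in nrpe1, 17.3 to 20.8 in brat1 and 18.5 to 21.0 in brat1nrpe1, against 17.6 to 19.6 in WT. This sum was not tested.

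**Figure D2:**
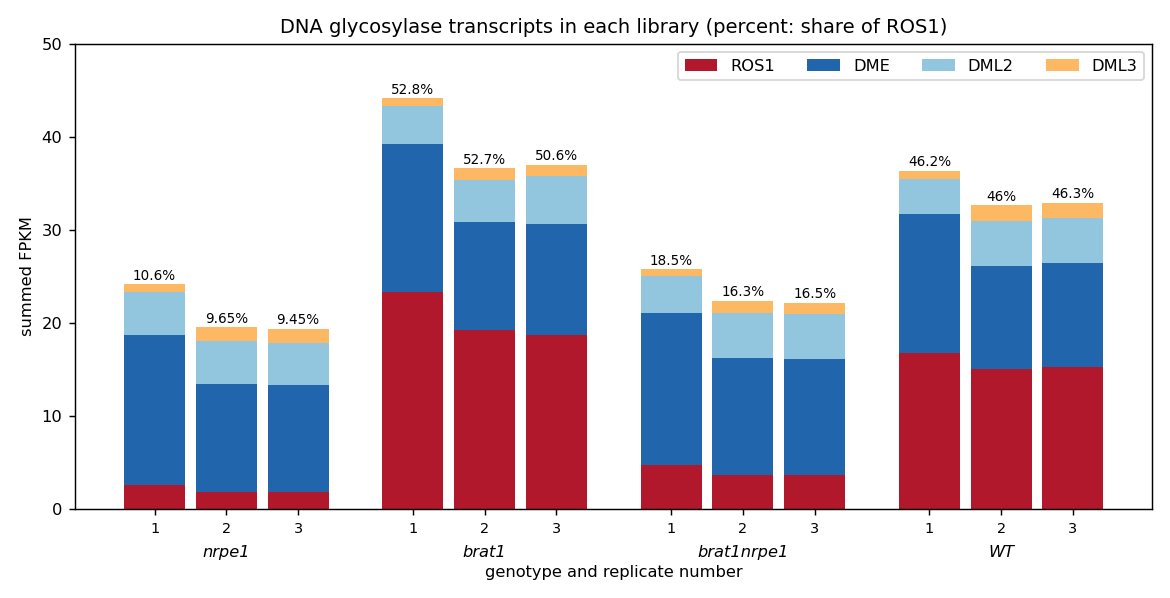
Summed FPKM of the 4 DNA glycosylases in each library (stacked bars, linear axis from 0), by genotype and replicate number; the figure over each bar is the share of ROS1. ROS1 holds 9.45% to 18.5% of the sum in nrpe1 and brat1nrpe1, against 46.0% to 52.8% in brat1 and WT.

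The rank of ROS1 among the 7 genes moved accordingly. It was the sixth in each nrpe1 library, above DML3 only, and the first or the second in each brat1 and WT library. In brat1nrpe1 it was the fourth in replicate 1 and the sixth in replicates 2 and 3. LIG1 was the highest of the 7 in every library except 2 of the 3 brat1 libraries, and DML3 was the lowest in all 12.

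DME, the glycosylase of the central cell, was detected in all seedlings at a level close to that of ROS1 in WT. DME had 16.2, 11.5 and 11.5 FPKM in nrpe1, 15.9, 11.6 and 11.9 in brat1 and 16.3, 12.6 and 12.4 in brat1nrpe1, against 14.9, 11.1 and 11.2 FPKM in WT. The groups overlapped, and replicate 1 was the highest library in every genotype. WT was the lowest of the 4 genotypes in every replicate number. The largest difference, brat1nrpe1 against WT, was 0.15 on the log2 scale (95% interval -0.28 to 0.58, limma adjusted p = 1.0; 0.095 with the replicate block, and 0.043 without replicate 1).

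DML2 stood near 4.5 FPKM in all genotypes and showed no order among them. Its means were 4.57 ± 0.0463 FPKM in nrpe1, 4.59 ± 0.544 in brat1 and 4.56 ± 0.482 in brat1nrpe1, against 4.45 ± 0.635 FPKM in WT (SD, n = 3 each). The 5 differences between genotypes lay between -0.01 and 0.05 on the log2 scale, and the intervals against WT reached from -0.26 to 0.35.

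DML3 was the lowest of the family. DML3 had 0.849, 1.47 and 1.49 FPKM in nrpe1, 0.819, 1.29 and 1.23 in brat1 and 0.708, 1.34 and 1.16 in brat1nrpe1, against 0.926, 1.70 and 1.66 FPKM in WT. WT was the highest genotype in each of the 3 replicate numbers, and the groups nevertheless overlapped since replicate 1 was low throughout. The difference was -0.15 in nrpe1, -0.31 in brat1 and -0.38 in brat1nrpe1 against WT on the log2 scale, none of them called by limma (adjusted p = 1.0). With the replicate block the lowest of these adjusted p-values was 0.13, in brat1nrpe1 against WT. About 63 to 125 reads lay behind each DML3 value at the estimated depths, so counting alone gave an SD of 0.129 to 0.181 on the log2 scale.

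ZDP, the phosphatase that clears the end left by the glycosylase, had 11.3, 11.5 and 12.1 FPKM in nrpe1, 11.8, 13.1 and 13.0 in brat1 and 11.7, 12.05 and 12.3 in brat1nrpe1, against 11.0, 11.5 and 13.5 FPKM in WT. The WT libraries alone spanned the values of all 9 mutant libraries. Its differences from WT were between -0.04 and 0.07 on the log2 scale, with intervals from -0.24 to 0.27.

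APE1L, the endonuclease of the other end-processing route, had 4.90, 6.96 and 7.25 FPKM in nrpe1, 5.02, 7.13 and 6.87 in brat1 and 4.71, 6.25 and 6.75 in brat1nrpe1, against 5.03, 8.34 and 7.82 FPKM in WT. As for DML3, replicate 1 was low in every genotype and WT was the highest genotype in every replicate number. The mean in brat1nrpe1 was 83.6% of that in WT, a log2 difference of -0.24 (95% interval -0.78 to 0.30, limma adjusted p = 1.0; 0.10 with the replicate block).

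LIG1, the main replicative DNA ligase, had 16.7, 17.3 and 17.1 FPKM in nrpe1, 17.1, 18.5 and 19.5 in brat1 and 18.7, 16.7 and 16.8 in brat1nrpe1, against 17.3, 19.9 and 19.2 FPKM in WT. The groups overlapped in every comparison. The difference of nrpe1 from WT was -0.14 (95% interval -0.33 to 0.05, limma adjusted p = 1.0), and that of brat1nrpe1 from WT was -0.11 (adjusted p = 1.0, and 0.024 without replicate 1, when it was -0.22).

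Apart from ROS1, the 6 members gave 30 differences over the 5 comparisons, from -0.38 to 0.15 on the log2 scale. All 30 adjusted p-values were 1.0 in limma, and in none of the 30 did the groups stand apart. The 95% intervals of this fit, which held no replicate block, reached from -1.11 to 0.66, and the widest were those of DML3. With the block, SEs fell from 0.193 to 0.0466 for DME, from 0.327 to 0.133 for DML3 and from 0.241 to 0.0747 for APE1L. Unadjusted limma p-values with the block in brat1nrpe1 against WT were 0.00929 for DME, 0.0104 for APE1L and 0.0175 for DML3. For DML3 in brat1 against WT the value was 0.0418. The lowest of the 30 adjusted p-values with the block was 0.095, so none passed the threshold. The median difference of the 7 genes was -0.13 in nrpe1 against WT, 0.05 in brat1 against WT and -0.11 in brat1nrpe1 against WT. Over all tested genes the 3 medians were between 0.002 and 0.01.

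**Figure D3:**
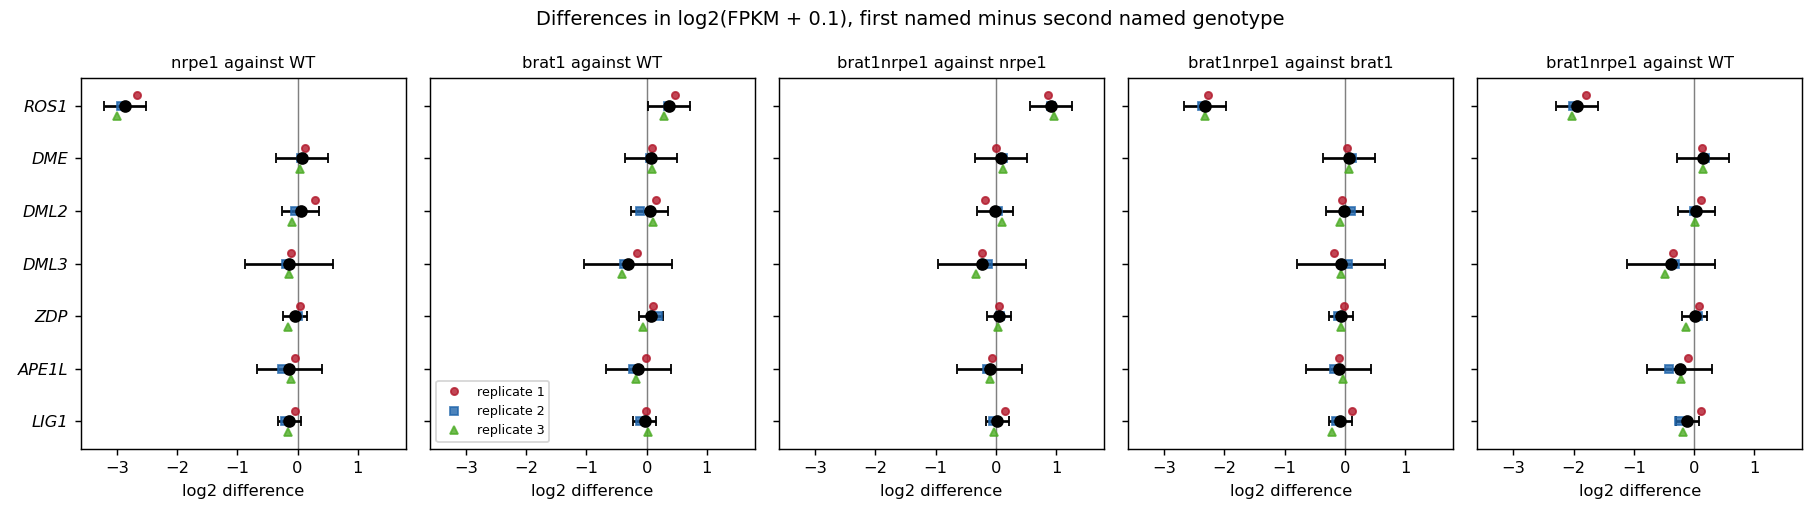
Log2 differences (log2(FPKM + 0.1), first named minus second named genotype) of the 7 genes in the 5 comparisons; black points and bars are the limma estimates and 95% intervals, coloured symbols the differences within replicate numbers 1, 2 and 3. ROS1 stands at -2.86, 0.37, 0.92, -2.32 and -1.95. In this fit, which holds no replicate block, the intervals of the 6 other genes all include 0.

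In DME, DML3 and APE1L the libraries differed more by replicate number than by genotype. DME was at 14.9 to 16.3 FPKM in the 4 libraries of replicate 1, against 11.1 to 12.6 FPKM in the 8 libraries of replicates 2 and 3. DML3 was at 0.708 to 0.926 FPKM in replicate 1, against 1.16 to 1.70 FPKM in replicates 2 and 3. APE1L was at 4.71 to 5.03 FPKM in replicate 1, against 6.25 to 8.34 FPKM in replicates 2 and 3. These ranges did not overlap, and the libraries of replicate 1 were also those of the greater depth. How many of all tested genes split in this way was not counted, so the split is not shown to be particular to these genes. The study lists a higher share of mapped reads for them, and what else set them apart is not given in the labels. Of the leaf markers, RBCS1B was at 414 to 597 FPKM in replicate 1, against 1899 to 2196 FPKM in replicates 2 and 3. LHCB2.1 was also lower in replicate 1, and RBCS1A and PSBO1 were higher. ROS1 was higher in replicate 1 in each genotype, by 0.15 to 0.44 on the log2 scale.

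The rest of the repair pathway was described from 18 other base excision repair genes, among them the DNA glycosylases OGG1, FPG1, NTH1, NTH2, UNG and MBD4L, the endonucleases ARP and APE2, the scaffold protein XRCC1, the poly(ADP-ribose) polymerases PARP1 and PARP2 and the sliding clamps PCNA1 and PCNA2. All 18 passed the filter, and 0 were called in each of the 5 comparisons by limma. At an unadjusted p under 0.05, 1 of the 18 passed in nrpe1 against WT (3.04% of all tested genes did), 2 in brat1nrpe1 against nrpe1 (4.25% of all tested genes) and 0 in the other 3 comparisons, where the share of all tested genes was 2.95% in brat1 against WT, 2.21% in brat1nrpe1 against brat1 and 5.34% in brat1nrpe1 against WT. The medians of the list were between -0.04 and 0.02 on the log2 scale. With the replicate block 1 gene was called in nrpe1 against WT (1.29% of all tested genes were). That gene, named here after its value was seen, was XRCC1, with a mean of 16.4 FPKM in nrpe1, against 12.8 FPKM in WT (log2 difference 0.35, SE 0.160, limma adjusted p = 1.0, and 0.029 with the block).

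Of 10 factors known to work with the glycosylases (the anti-silencing factors IDM1, IDM2, IDM3 and MBD7, the RNA-binding protein ROS3, the BRAT1 partner BRP1, the iron-sulphur assembly proteins MET18 and AE7 and the FACT histone chaperone subunits SSRP1 and SPT16), 0 were called in the 5 comparisons. At an unadjusted p under 0.05 there were 1 in nrpe1 (3.04% of all tested genes), 3 in brat1 (2.95%) and 2 in brat1nrpe1 (5.34%) against WT, and 0 in the other 2 comparisons. The lowest p was that of IDM3, an alpha-crystallin domain protein, which had 2.17, 1.87 and 2.52 FPKM in nrpe1, 2.18, 2.77 and 2.82 in brat1 and 2.35, 2.07 and 2.34 in brat1nrpe1, against 3.27, 3.32 and 3.20 FPKM in WT. Every mutant library was below every WT library, and the difference of nrpe1 from WT was -0.57 (SE 0.141, limma adjusted p = 0.39). Groups without overlap with WT, in either direction, were seen in 5.69% of all tested genes for nrpe1, 6.39% for brat1 and 8.92% for brat1nrpe1. With the replicate block 2 of the 10 were called in brat1nrpe1 against WT (5.65% of all tested genes were). These were IDM2 with a log2 difference of -0.68 (SE 0.256, limma adjusted p = 0.73, and 0.027 with the block) and SPT16 with -0.16 (SE 0.0757, adjusted p = 0.97, and 0.046 with the block). In brat1 against WT, IDM2 was lower by a like amount, -0.74, and was not called (limma adjusted p = 0.054 with the block). The brat1 and WT groups of IDM2 did not overlap, as 6.39% of all tested genes did not. The IDM2 difference was -0.30 in nrpe1 against WT and 0.06 in brat1nrpe1 against brat1. IDM3, IDM2, SPT16, SSRP1 and MET18 were named after their values were seen.

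The genes next to ROS1 were not called in any comparison. AT2G36480, on the same strand and 97 bases beyond the 3′ end of ROS1, had means of 8.84 ± 1.68 FPKM in nrpe1, 9.13 ± 1.94 in brat1 and 8.66 ± 2.29 in brat1nrpe1, against 8.62 ± 2.40 FPKM in WT (SD, n = 3 each). AT2G36500, on the other strand and 3065 bases from the start of ROS1, had 1.65 ± 0.290 FPKM in nrpe1, 1.31 ± 0.235 in brat1 and 1.20 ± 0.227 in brat1nrpe1, against 1.23 ± 0.0526 FPKM in WT. The limma adjusted p was 1.0 for both in each of the 5 comparisons. Next to BRAT1, NTH2 (AT1G05900, a base excision glycosylase 478 bases away) was at 8.40 to 13.0 FPKM in brat1, against 9.69 to 13.5 FPKM in WT, and AT1G05920 was listed at 0 in 11 of the 12 libraries.

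The genes most like ROS1 over the 12 libraries were sought among 19486 genes with a mean of at least 1 FPKM, after the mean of the 4 libraries with the same replicate number was taken from each log2 value. The 5 highest Pearson correlations were those of AT1G76880 (0.981), AT5G13980 (0.981), AT1G54120 (0.969), AT3G59060 (0.968; PIL6 or PIF5, a phytochrome-interacting transcription factor) and AT5G52530 (0.967). Their changes were far smaller than that of ROS1: AT1G54120, the one that varied most, had 7.46 ± 3.64 FPKM in nrpe1, 13.8 ± 6.78 in brat1 and 9.13 ± 4.77 in brat1nrpe1, against 12.8 ± 5.85 FPKM in WT (SD, n = 3 each), and AT5G52530 had 25.0 ± 0.782, 27.7 ± 1.03 and 25.6 ± 0.880, against 27.4 ± 1.08 FPKM in WT. The correlations are a description over 12 libraries of 4 genotypes, 6 libraries with and 6 without the nrpe1 mutation, and 41 genes were over 0.9. Without the centring the 5 genes were others (highest correlation 0.958, 0 shared), and NRPE1 itself was the fourth of them at 0.932.

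**Figure D4:**
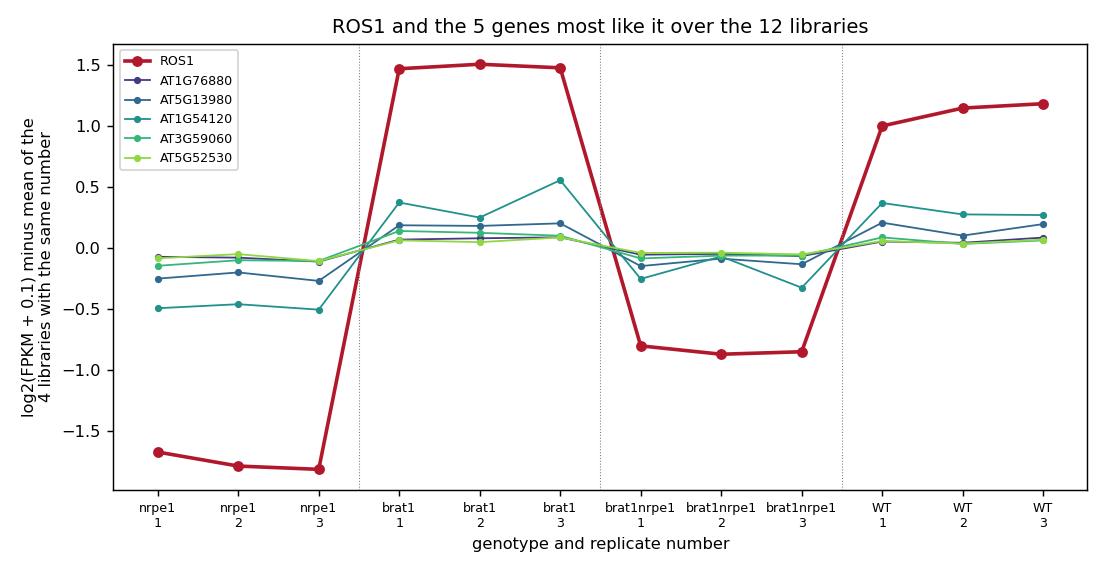
Values of log2(FPKM + 0.1), minus the mean of the 4 libraries with the same replicate number, for ROS1 and the 5 genes with the highest correlation to it, by genotype and replicate. All 6 lines are lower in nrpe1 and brat1nrpe1 than in brat1 and WT, and the ROS1 line spans several times the range of the others.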

How the data were processed

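The deposited table gave 1 FPKM value per feature and library. Per the labels and the study's methods, the authors sequenced oligo(dT)-selected RNA on Illumina machines, mapped reads to TAIR10 with TopHat2 and kept uniquely mapped reads, and computed FPKM with the Cufflinks package (TopHat2 2.0.12, Bowtie and Cufflinks 2.0.1 in the submitters' processing notes). FPKM divides by depth and transcript length, so levels are relative to each library's total. An exact 0 can be a failed estimate. Of the table's value columns, all 12 were used.

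From these values log2(FPKM + 0.1) was taken for features with a mean of at least 0.1 FPKM, and 1 model of the 4 genotype means was fitted to all 22645 of them with limma 3.58.1 in R 4.3.3 (empirical Bayes with a trend, two-sided), with Benjamini-Hochberg adjustment over all tested features. The code was tested on simulated data. Values were given for the 7 members, the mutated genes, the markers, the genes next to ROS1 and BRAT1 and genes most like ROS1. No gene of the 2 lists was called in the main fit. Values were given for XRCC1, IDM2 and SPT16, which were called with the replicate block only. IDM3, called in neither fit, was added for the lowest p of its list. SSRP1 and MET18, also called in neither fit, were added since their brat1 and WT groups did not overlap. The members and lists were chosen with earlier results of these data known. Depth was estimated from the value of 1 read in genes with 1 transcript longer than 1500 bases; counts were not used, and the read numbers are approximate and cover counting error only. Annotation, coordinates and sequences came from the RefSeq copy of TAIR10.1; 33389 of the 34133 features matched a nuclear locus tag.

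The replicate numbers were taken as pairing the libraries: the deviations from the genotype means correlated at 0.593 to 0.840 in each of the 18 pairs of libraries with the same number. Libraries of replicate 2 and replicate 3 also correlated with each other, at 0.571 to 0.619. All 36 pairs with different numbers ranged from -0.728 to 0.619, which overlaps the range for the same number. Deviations from a mean of 3 libraries sum to 0, so a distinct replicate 1 alone would make replicates 2 and 3 correlate. These values therefore do not show that the numbers 2 and 3 pair libraries, and p-values with the replicate block rest on taking them so. The replicate block is an alternative fit here, as the study states none. The other alternatives were pseudocounts of 1 and 0.01, no filter, a mean of at least 1 FPKM, no trend, a common 75th percentile, each replicate left out, the 6 libraries alone, the study's limits (P under 0.01, log2 difference above 1 or below -1) and, added after the data were seen, replicates 2 and 3 averaged as 1 sample, with and without the block.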

Additional observations from a re-analysis of the deposited data

How the results depend on the processing

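ROS1 kept its direction in all 8 comparisons under every alternative run. With the replicate block, ROS1 in brat1nrpe1 against nrpe1 (0.92) and the averaged brat1 effect (0.64) passed the threshold, and the averaged brat1 effect also passed at a common 75th percentile (0.64, adjusted p = 0.043) and with replicates 2 and 3 averaged with the block (0.65, adjusted p = 0.030), where ROS1 in brat1nrpe1 against nrpe1 did not pass (0.90, adjusted p = 0.067); the block changed no other call on ROS1. With replicates 2 and 3 averaged without the block, ROS1 in brat1nrpe1 against brat1 (-2.31, adjusted p = 0.15) and against WT (-1.91, adjusted p = 0.25) was no longer past it. These averaged fits were chosen after seeing the data.

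Leaving out each replicate in turn gave ROS1 -2.96 to -2.80 in nrpe1 against WT (adjusted p 4e-05 to 0.062), 0.89 to 0.94 in brat1nrpe1 against nrpe1 (0.0014 to 1.0), -2.35 to -2.30 against brat1 (0.0002 to 0.18), -2.02 to -1.91 against WT (0.00022 to 0.28), 0.63 to 0.65 for the averaged brat1 effect (0.0018 to 1.0) and 0.48 to 0.61 for the interaction (0.028 to 1.0). The cause was not tested. Each of these fits has 8 libraries, and those without replicate 2 or 3 keep replicate 1. The fit without replicate 1 rests on replicates 2 and 3, whose libraries correlated with each other (0.571 to 0.619).

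Of 420 alternatives on the other 6 members, 10 had the other sign, all at main differences of at most 0.0497, and 2 passed the threshold, DME and LIG1 in brat1nrpe1 against WT without replicate 1. The ranges without a replicate that crossed 0 were, for DML2, -0.0692 to 0.12 in nrpe1 and -0.0022 to 0.124 in brat1 against WT, and -0.0682 to 0.0761 and -0.0606 to 0.0286 in brat1nrpe1 against nrpe1 and brat1. They were, for LIG1, -0.0606 to 0.0028 in brat1 against WT and -0.0380 to 0.0668 in brat1nrpe1 against nrpe1, and, for ZDP, -0.0796 to 0.0194 in nrpe1 and -0.0330 to 0.0772 in brat1nrpe1 against WT.

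Counts over all tested genes moved most. The main 80, 11, 33, 30 and 68 calls (nrpe1 and brat1 against WT, brat1nrpe1 against nrpe1, brat1 and WT) became 1277, 441, 1884, 751 and 2114 without replicate 1, 292, 191, 765, 174 and 1280 with the replicate block, 150, 87, 115, 98 and 190 under the study's limits, 11, 0, 0, 1 and 6 without replicate 2, and 6, 0, 0, 0 and 0 without replicate 3. Depth limits DML3 most, with 63 to 125 reads per library.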
